A study of Mus musculus with 8 samples.

Results

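The growth hormone and IGF axis was followed here in 8 mouse livers through 10 genes, chosen by symbol: Ghr, Igf1, Igfals, Socs2, Cish, Stat5b, Mup3, Mup20, Igfbp1 and Igfbp2. All 10 symbols were found among the 32285 genes listed in each deposited matrix, and all 10 passed the filter on low counts in every comparison. Growth hormone, released by the pituitary in pulses, binds its receptor on hepatocytes and activates the kinase JAK2 and the transcription factor STAT5B. STAT5B switches on Igf1, the main source of circulating insulin-like growth factor 1 (IGF-1), together with its carrier gene Igfals, the feedback inhibitors Socs2 and Cish, and a set of genes that differ between male and female liver, among them the Mup genes. Insulin works beside this axis in the fed liver by keeping Igfbp1, a binding protein that holds IGF-1 back, at a low level.

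The livers came from male DIAMOND mice, a 129A1/SvIm and C57BL/6J cross that develops fatty liver disease and liver tumours on a high-fat diet with sugar water. The RD no tumour group (n = 3 mice) was fed this Western diet for 36 weeks and then returned to standard chow, and had no detectable tumour. The RD tumour group (n = 2) was fed in the same way and developed hepatocellular carcinoma. In the WD tumour group (n = 3), Western diet went on for 48 weeks and hepatocellular carcinoma developed. All groups therefore shared a long exposure to Western diet, and no mouse was kept on chow throughout. Compared with RD no tumour, the WD tumour mice had tumours and also stayed on Western diet without a return to chow. That contrast therefore cannot separate the part of diet from the part of tumour, and neither part was tested. The sources disagree on age, giving 48 weeks as the age at the end and also as the time on diet. Whether tumour or surrounding tissue was sampled is not stated. Nuclear RNA of snap-frozen liver was sequenced from single nuclei, with 1 library per mouse.

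Deposited totals ranged from 17948627 unique molecular identifiers (UMIs, counted RNA molecules) in WD tumour 1 to 34363108 in RD tumour 1. Of 80575 barcodes, the 79446 with at least 300 detected genes were kept as nuclei, with a median of 1120 to 2656 UMIs per nucleus. Values are given as CPM, the UMIs of a gene per 1000000 UMIs of the library or of the gated nuclei. RD tumour 1 stood apart, with correlations of log2(CPM + 1) across genes of 0.811 to 0.892 with the other libraries, which reached at least 0.931 among themselves. RD no tumour 1 and WD tumour 2, from different groups, were nearest to each other (r = 0.977). Mitochondrial RNA made up a median of 7.91% and 7.51% of UMIs per nucleus in WD tumour 1 and WD tumour 3, against 1.296% to 3.28% in the other libraries. No pair of libraries shared more than 0.676% of the barcodes of the smaller one. The labelled tissue was checked against its markers: the 12 hepatocyte markers, none of them at 0 in any library, summed to 10312 to 17281 CPM in 7 libraries and to 7502 CPM in RD tumour 1.

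The receptor and its transducer were measured with at least 4587 UMIs (Ghr) and 3356 UMIs (Stat5b) in every mouse. Ghr encodes the growth hormone receptor and lies on chromosome 15 (GRCm38, chr15:3317760-3583492, minus strand). Its level was 1530.2, 1878 and 3319.6 CPM in RD no tumour, 133 and 2177 CPM with RD tumour, and 2648, 1379 and 3162 in the WD tumour mice. RD tumour 1 lay far below all other mice, and the remaining 7 overlapped across groups. The fitted log2 fold change of RD tumour against RD no tumour was -1.10 ± 1.01 (SE), with an adjusted p of 0.672 in edgeR's quasi-likelihood test. Stat5b (chr11:100780731-100850724, minus strand) encodes the factor that carries the signal to the nucleus. It stood at 176, 188 and 186 CPM in RD no tumour, at 114 and 246 in RD tumour, and at 187, 207 and 183 in WD tumour. The RD tumour mice thus held both the lowest and the highest Stat5b level of the series.

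Igf1 was lower in both RD tumour mice than in any of the other 6. The gene (chr10:87858265-87937042, plus strand) encodes the hormone that the axis is named for, and it overlaps the antisense gene Igf1os, whose reads cannot be told apart from its own unless strand was used in counting. Igf1 stood at 877, 589.9 and 602 CPM in RD no tumour, at 333 and 467 in RD tumour, and at 582, 697 and 589.8 in WD tumour. The means were 689.8 ± 163 CPM (SD, n = 3), 400.3 ± 94.9 (SD, n = 2) and 623 ± 64.1 (SD, n = 3). The log2 fold change was -0.85 ± 0.31 (SE) for RD tumour against RD no tumour, with an unadjusted p of 0.0269 and an adjusted p of 0.612 in edgeR's quasi-likelihood test, which misses the threshold after correction over 19087 genes. In that comparison 5.85% of all genes tested were lower in RD tumour without overlap. WD tumour against RD tumour gave 0.66 ± 0.31 (SE) with an adjusted p of 0.59 by edgeR, and 10.4% of all genes were higher there without overlap. The hepatocyte marker sums were 7502 and 11816 CPM in the RD tumour mice, and the latter lay above the 10312 of WD tumour 2. Fewer hepatocytes and less RNA per hepatocyte cannot be told apart in summed libraries.

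Igfals encodes the acid-labile subunit, which holds IGF-1 in its large circulating complex. It lies at chr17:24865997-24882010 on the plus strand. The level was 33.8, 19.4 and 45.0 CPM in RD no tumour mice, against 13.3 and 20.7 in RD tumour, and 32.8, 38.3 and 37.5 in WD tumour. All 3 WD tumour mice were above both RD tumour mice, a separation that 10.4% of all genes tested had. RD no tumour 2 fell between the RD tumour mice. The log2 fold change was -1.03 ± 0.39 (SE) for RD tumour against RD no tumour (adjusted p = 0.612, edgeR) and 1.12 ± 0.39 (SE) for WD tumour against RD tumour (adjusted p = 0.59, edgeR).

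The feedback inhibitors overlapped between RD no tumour and each of the other groups. Socs2 (chr10:95385362-95417180, minus strand), which limits signalling from the receptor, stood at 38.6, 7.99 and 15.8 CPM in RD no tumour, at 46.9 and 13.4 in RD tumour, and at 30.2, 31.3 and 29.0 in WD tumour. The WD tumour mice were alike, and the other groups spread on either side of them. Cish (chr9:107296026-107302784, plus strand), an inhibitor of the same family, stood at 20.2, 4.06 and 5.74 CPM in RD no tumour, at 3.96 and 7.42 in RD tumour, and at 8.69, 13.6 and 10.0 in WD tumour. Its WD tumour values lay above both RD tumour values, as those of 10.4% of all genes did, and RD no tumour 1 was the highest of all. Cish overlaps Gm17040 and Gm17041 on the opposite strand, so its counts share the same reservation as those of Igf1.

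The promoters of Igfals, Cish and Igfbp1 are shown because they hold short matches to motifs of the factors that the axis works through. They were taken from the RefSeq windows of GRCm38.p6, which cover 250 bases before to 50 bases after a gene start and matched 8 of the 10 members (all but Socs2 and Mup20). The STAT motif TTCNNNGAA was found in 2 of the 3 Igfals windows, 1 of them shown, and at 2 positions of Cish. It reads the same on both strands and occurs in 8.3% of the 32851 windows. The forkhead motif GTAAACA, searched on both strands, occurs in 3.65% of windows and CAAAACAA, the start of the insulin response sequence to which forkhead factors such as FOXO1 bind, in 2.51%. Capitals mark the matches, which are letters in a window and not evidence of binding. The stretches are chr17:24877981-24878230, chr11:7197537-7197786 and chr9:107296654-107296683, all on the plus strand, read from the 5′ end.
Igfals, 250 bases before a start: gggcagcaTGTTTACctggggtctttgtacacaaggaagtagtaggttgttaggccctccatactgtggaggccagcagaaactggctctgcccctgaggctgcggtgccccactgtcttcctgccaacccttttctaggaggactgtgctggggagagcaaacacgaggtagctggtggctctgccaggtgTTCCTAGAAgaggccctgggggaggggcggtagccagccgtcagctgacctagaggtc
Igfbp1, 250 bases before the start: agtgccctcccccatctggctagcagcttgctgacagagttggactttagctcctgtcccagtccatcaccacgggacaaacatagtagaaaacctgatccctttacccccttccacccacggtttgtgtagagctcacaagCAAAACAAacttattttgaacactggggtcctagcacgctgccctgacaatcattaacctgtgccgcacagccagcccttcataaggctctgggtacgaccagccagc
Cish, 30 bases around the start: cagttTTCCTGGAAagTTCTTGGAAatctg

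**Figure D1:**
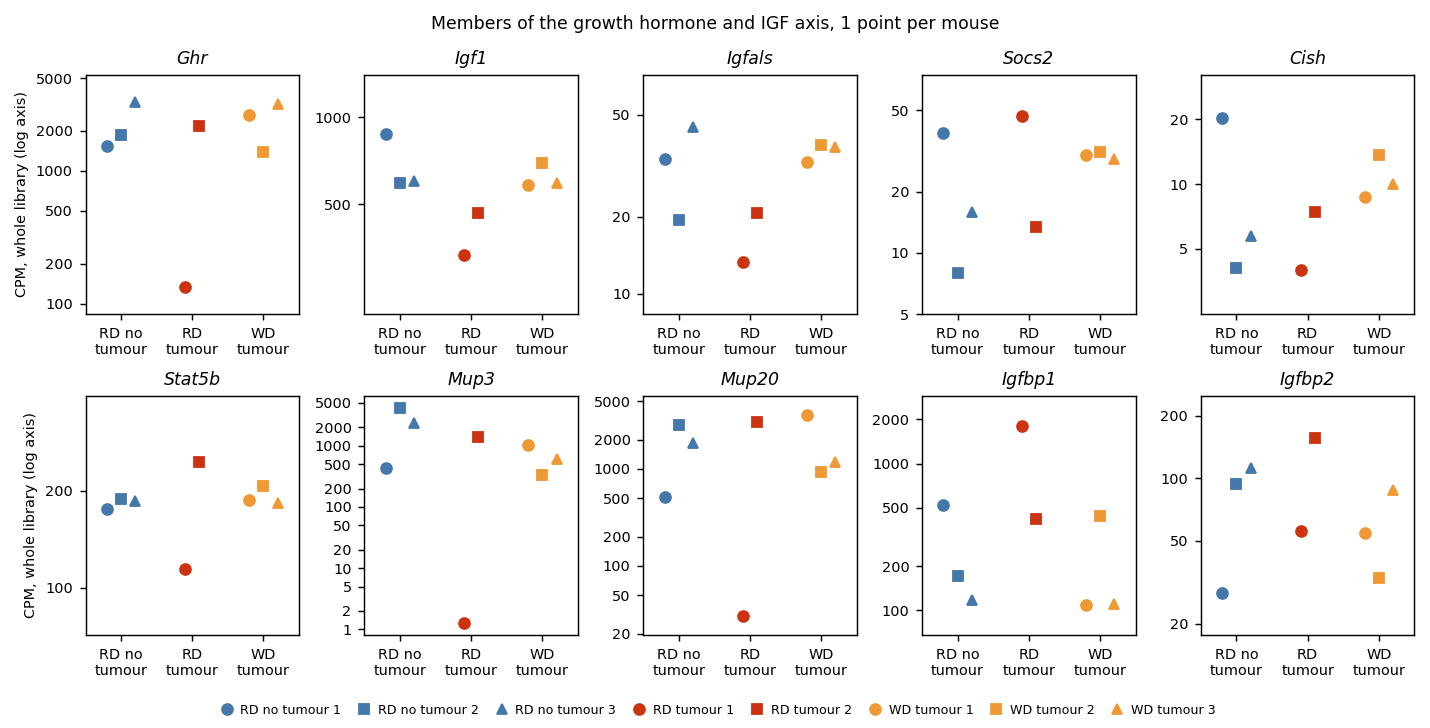
CPM of the 10 members in the whole library (log axis, range set per gene), 1 point per mouse, with symbols for the replicate and colours for the group. Igf1 is lower in both RD tumour mice (333 and 467 CPM) than in the other 6, while Ghr, Mup3 and Mup20 are low in RD tumour 1 and Igfbp1 is high in RD tumour 1, RD no tumour 1, WD tumour 2 and RD tumour 2.

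The binding proteins varied between mice of the same group. Igfbp1 (chr11:7197782-7202546, plus strand), whose product rises in fasting and stress, stood at 519, 171 and 118 CPM in RD no tumour, at 1818 and 422 in RD tumour, and at 108, 441 and 111 in WD tumour. RD tumour 1 was the highest, and 1 mouse of each other group, RD no tumour 1 and WD tumour 2, reached the level of RD tumour 2. The log2 fold change was 2.07 ± 0.90 (SE) for RD tumour against RD no tumour (adjusted p = 0.612, edgeR) and -2.39 ± 0.91 (SE) for WD tumour against RD tumour (unadjusted p = 0.0307 and adjusted p = 0.59, edgeR). Igfbp2 (chr1:72824503-72852474, plus strand), another carrier of IGFs made by the liver, stood at 28.1, 94.2 and 112 CPM in RD no tumour, at 55.8 and 156 in RD tumour, and at 54.5, 33.0 and 87.5 in WD tumour. RD no tumour 1 and WD tumour 2, with 519 and 441 CPM of Igfbp1, had the lowest Igfbp2 levels of the 8 mice.

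The Mup genes, which encode major urinary proteins and depend on pulses of growth hormone in male mice, had a wider range over the 8 mice than the other members. Mup3 (chr4:62083476-62087342, minus strand) stood at 432, 4115 and 2326 CPM in RD no tumour, at 1.28 and 1373 in RD tumour, and at 1019.5, 337 and 598 in WD tumour. Mup20 (chr4:62050234-62054158, minus strand), also known as darcin, stood at 509.6, 2840.2 and 1836 CPM in RD no tumour, at 30.7 and 3079.6 in RD tumour, and at 3574, 934 and 1188 in WD tumour. RD tumour 1 had 44 UMIs of Mup3 where RD no tumour 2 had 93247. RD no tumour 1, WD tumour 2 and RD tumour 1, which had more Igfbp1 than the other mice of their groups, had less Mup3 and Mup20 than those mice. The log2 fold change of Mup3 was -1.87 ± 1.65 (SE) for WD tumour against RD no tumour (adjusted p = 1.0, edgeR) and -1.89 ± 1.92 (SE) for RD tumour against RD no tumour (adjusted p = 0.695, edgeR). The Mup genes are near-identical copies in a cluster, so the split of reads between them is uncertain.

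Across the 3 contrasts of whole libraries, 0 of the 10 members were called at an adjusted p under 0.05, against a background of 0% of 19087 genes in each contrast. At an unadjusted p under 0.05, 2 members (Igf1 and Igfals) differed in RD tumour against RD no tumour, where 6.7% of all genes did. In WD tumour against RD tumour 2 members did (Igfals and Igfbp1, with 7.56% of all genes). Between the WD tumour and RD no tumour groups 0 did (2.75% of all genes). In the latter contrast 0 members were separated without overlap, against 6.85% of all genes higher and 3.8% lower. The median log2 fold change over the members was -0.57, 0.26 and 0.03 in these contrasts, and that over all genes was 0.00, -0.01 and -0.01. DESeq2 called 0 members as well, and 67, 109 and 36 genes.

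Every value of the RD tumour group rested on 2 unlike mice. Without RD tumour 1, 11 genes and 0 members were called, the log2 fold changes of RD tumour 2 against RD no tumour were -0.67 for Igf1, -0.79 for Igfals, 0.57 for Igfbp1 and -0.19 for Ghr, and those of Socs2, Stat5b and Mup20 changed sign, to -0.72, 0.30 and 0.68. Without RD tumour 2, RD tumour 1 alone differed from RD no tumour in 4569 genes, 3 of them members: Ghr (log2 fold change -4.12, adjusted p = 0.026), Mup3 (-10.86, adjusted p = 0.0201) and Mup20 (-5.87, adjusted p = 0.045), by edgeR. Igf1 in that fit was -1.07 with an adjusted p of 0.0598 by edgeR. A group of 1 mouse enters such a fit on the assumption that it varies like the other groups.

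The members were then measured in nuclei gated on markers of a cell class, since most of them are hepatocyte genes. A nucleus was gated as hepatocyte with UMIs of at least 4 of 12 hepatocyte markers and at most 1 marker of any other class. This gave 1713 to 6081 nuclei per mouse. In RD tumour 1, 1642 of its 4262 gated nuclei had exactly 4 markers, and endothelial markers summed to 456 CPM in the gate, against 69.7 to 211 in the other mice. Hepatocyte-gated nuclei of WD tumour 1 and WD tumour 3 had a median of 11.2% and 10.96% mitochondrial UMIs. Igf1 stood at 1236, 693 and 642 CPM in hepatocyte-gated nuclei of RD no tumour, at 416 and 514 in RD tumour, and at 661, 919 and 665 in WD tumour, so that the order of the groups was that of the whole libraries. The log2 fold change of RD tumour against RD no tumour was -1.06 ± 0.42 (SE, adjusted p = 0.349, edgeR). Igfals stood at 47.5, 20.6 and 50.5 CPM in RD no tumour, at 13.5 and 23.7 in RD tumour, and at 37.2, 58.2 and 41.3 in WD tumour. Its log2 fold change was -1.26 ± 0.48 (SE, adjusted p = 0.337, edgeR) for RD tumour against RD no tumour and 1.45 ± 0.48 (SE, adjusted p = 0.513, edgeR) for WD tumour against RD tumour. In these gated nuclei 0 of 10 members were called in the 3 contrasts, against 0% of 15862 genes. At an unadjusted p under 0.05, 2, 0 and 1 members differed between RD tumour and RD no tumour (13.8% of all genes), between the WD tumour and RD no tumour groups (3.89%), and between both tumour groups (9.66%). Without overlap, Igf1 was lower in RD tumour than in the mice without tumour (7.92% of all genes), and Igf1, Igfals and Cish in WD tumour lay above both RD tumour mice (8.9% of all genes). Between the WD tumour and RD no tumour groups 0 members were separated in this way (7.15% of all genes were higher and 5.72% lower).

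Within hepatocytes, members of the axis differed along the liver lobule, the unit in which blood flows from portal vessels to a central vein. Hepatocyte-gated nuclei were called pericentral or periportal when they had a lead of at least 2 markers of 1 zone over the other (12 markers each, no member among them), and the gates were compared within each of the 8 mice. Of the 10 members 4 were called: Igfbp1 and Socs2 were higher in pericentral nuclei, and Igf1 and Igfbp2 lower. Of 11757 genes tested, 13.1% were called, 6% higher and 7.06% lower. At an unadjusted p under 0.05, 5 members and 23.8% of all genes differed.

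Igfbp1 rose from 591, 180.4 and 105 CPM in periportal to 1036, 262 and 181 in pericentral nuclei of the RD no tumour mice. It rose from 1955 and 422 to 2661 and 650.3 in the RD tumour mice, and from 107, 458 and 84.1 to 159, 701 and 218 in the WD tumour mice. All 8 mice were higher in pericentral nuclei, at levels that differed more than 10-fold between mice, and the log2 fold change was 0.69 ± 0.09 (SE, adjusted p = 4.16e-05, edgeR). Socs2 went from 33.99, 4.91 and 11.2 CPM to 77.2, 4.56 and 23.0 in RD no tumour, from 55.6 and 7.17 to 139.8 and 16.5 in RD tumour, and from 24.1, 27.2 and 22.7 to 27.6, 29.8 and 31.9 in WD tumour. It was higher in 7 of 8 mice, with a log2 fold change of 0.77 ± 0.14 (SE, adjusted p = 0.000638, edgeR), and RD no tumour 2, with 12 and 30 UMIs, was the exception.

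Igf1 went the other way. It fell from 1426, 804 and 772 CPM in periportal to 1249, 508 and 442 in pericentral nuclei of RD no tumour. In WD tumour it fell from 784, 1274 and 864 to 508, 905 and 458, and in RD tumour 2 from 676 to 337. RD tumour 1 was the exception, with 486 CPM in periportal and 548 in pericentral nuclei, the latter from 102 UMIs of 113 nuclei. The pericentral log2 fold change was -0.61 ± 0.09 (SE, adjusted p = 0.000153, edgeR; lower in 7 of 8 mice). Igfbp2 was lower in 7 of 8 mice, at 46.3, 91.2 and 102 CPM against 16.7, 73.8 and 103 in RD no tumour, 50.5 and 171 against 48.4 and 127 in RD tumour, and 68.0, 54.4 and 99.8 against 40.8, 22.8 and 78.1 in WD tumour. Its log2 fold change was -0.46 ± 0.12 (SE, adjusted p = 0.0161, edgeR). Ghr did not pass, with 0.00 ± 0.08 (SE, adjusted p = 0.997, edgeR) and 5 of 8 mice higher, and Mup20 gave -0.27 ± 0.09 (SE, adjusted p = 0.0563, edgeR).

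**Figure D2:**
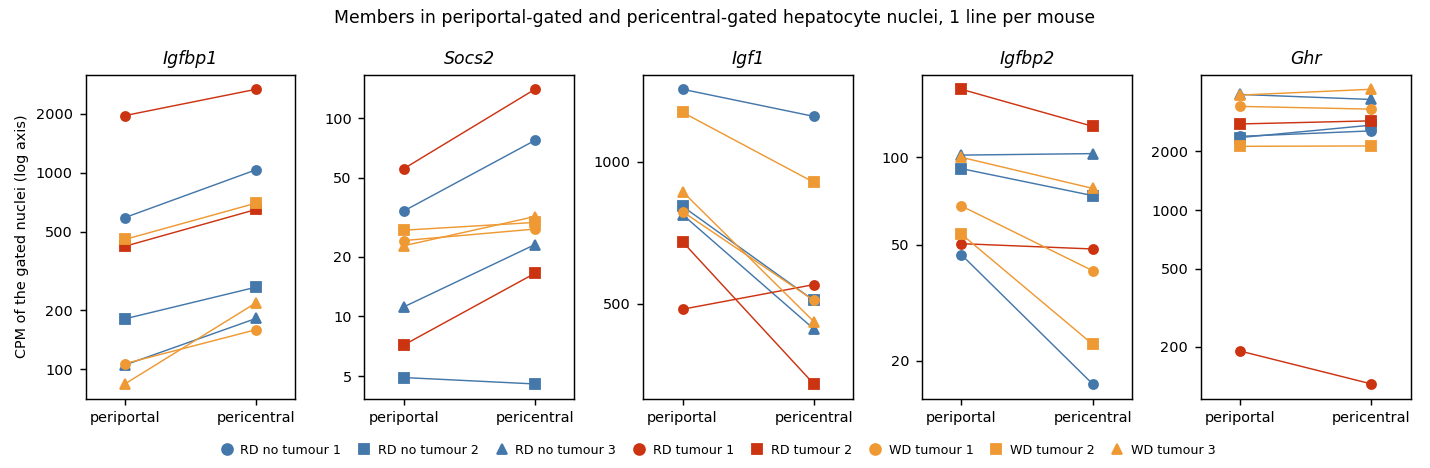
CPM of 5 members in periportal-gated and pericentral-gated hepatocyte nuclei (log axis, range set per gene), 1 line per mouse coloured by group. Igfbp1 rises in all 8 mice and Igf1 falls in 7, with RD tumour 1 as the exception, while Ghr has no common direction.

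The gates of a mouse were not always of like quality. In WD tumour 1 pericentral nuclei had a median of 991 UMIs and 11.1% mitochondrial RNA against 3321.5 UMIs and 3.22% in periportal nuclei. WD tumour 2 had 1368 UMIs and 3.88% in pericentral against 3286 UMIs and 1.54% in periportal nuclei. In the 3 RD no tumour mice the medians were 3618, 5258 and 3042 UMIs in pericentral and 3723, 4781 and 3265 in periportal nuclei, and Igfbp1 was higher and Igf1 lower in all 3. Without WD tumour 1 the log2 fold changes were 0.70 for Igfbp1 and -0.61 for Igf1, with WD tumour 2 still in the fit. The part of gate quality in the zone differences was not tested.

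The gene lists around the members were read against the 13.1% of all genes that were called between zones. Of the 9 genes tested from a list of 17 IGF ligands, receptors and binding proteins, 3 were called. Igf2r, the receptor that clears IGF-2, was higher in pericentral nuclei in 8 of 8 mice (log2 fold change 2.16 ± 0.26 SE, adjusted p = 1.22e-05, edgeR). Its level was 278, 96.9 and 293 CPM in pericentral against 28.0, 15.9 and 26.4 CPM in periportal nuclei of RD no tumour, and the gap was smallest in RD tumour 1, with 209.7 against 175 CPM. Igf1r, the receptor for IGF-1, was higher in 7 of 8 mice (1.15 ± 0.31 SE, adjusted p = 0.0181, edgeR), at 7.60 to 43.0 CPM in pericentral and 2.47 to 38.2 CPM in periportal nuclei. Igf2bp2, an RNA-binding protein of IGF-2 transcripts, was lower in 8 of 8 (-2.13 ± 0.38 SE, adjusted p = 0.000692, edgeR). Its pericentral level was at or near 0 in RD no tumour (0.439, 0 and 0.242 CPM) and RD tumour (0 and 0). Periportal nuclei held 11.2, 4.10 and 5.03 CPM in RD no tumour and 5.61 and 9.97 in RD tumour. In WD tumour the pericentral level was 4.80, 16.5 and 5.01 CPM against 14.2, 22.3 and 15.0 in periportal nuclei. These 3 genes were named after their values were seen.

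Of 11 male-biased genes tested, 5 were called higher in pericentral nuclei (Cyp2d9, Cyp7b1, Elovl3, Cyp4a12a and Mup11) and 1 lower (Mup21). Of 8 female-biased genes, 1 was called higher (Fmo2) and 3 lower, among them Cyp17a1 and Abcd2. Of 12 fasting genes, 2 were called higher (Pdk4 and Cebpb) and 5 lower (Pck1 and G6pc, which make glucose, Ppargc1a, Sesn1 and Creb3l3). Of 14 genes of growth hormone signalling, 2 were called lower (Onecut1 and Hnf4a, the latter also a hepatocyte gate marker) and 0 higher, a share near that of all genes.

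Between cell classes the question was which nuclei carried each member. Other classes were gated with at least 3 of their markers and a lead of at least 2 over any other class. Hepatocyte markers summed to 6651 to 13774 CPM in endothelial-gated nuclei, against 9087 to 20690.2 in hepatocyte-gated nuclei. Of the 10 members, 8 were lower in endothelial-gated than in hepatocyte-gated nuclei and 0 higher, where 31.9% of 13979 genes were lower and 25.5% higher. In stellate-gated nuclei 7 were lower and 1 higher (29.2% and 24.4% of 12887 genes), and in macrophage-gated nuclei 8 were lower and 0 higher (29.4% and 25.3% of 14496 genes). In all, 57.5%, 53.6% and 54.6% of genes were called in these classes. At an unadjusted p under 0.05, 8 members differed in each, with 62.7%, 58.7% and 59.8% of all genes. Igf1 was lower in all 8 mice in each class. Its log2 fold change was -0.83 ± 0.14 (SE) in endothelial-gated, -1.09 ± 0.15 in stellate-gated and -0.59 ± 0.11 in macrophage-gated nuclei, with adjusted p of 0.000835, 8.97e-05 and 0.00108 by edgeR. Ghr gave -0.79 ± 0.18 (SE), -0.89 ± 0.16 and -1.08 ± 0.13 (adjusted p = 0.00422, 0.00062 and 0.000246, edgeR). Igfbp1 gave -0.90 ± 0.13 (SE), -1.15 ± 0.12 and -0.86 ± 0.13 (adjusted p = 0.000539, 1.71e-05 and 0.000433, edgeR). Socs2 was the member that was higher in stellate-gated nuclei (0.56 ± 0.22 SE, adjusted p = 0.0463, edgeR; 6 of 8 mice). It missed the threshold with the other size factors, without a filter and with a stricter gate (adjusted p = 0.051, 0.122 and 0.0739, edgeR), and when 1 mouse was left out in 6 of 8 cases.

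T and NK lymphocytes, which should lack hepatocyte secreted proteins, served as a class for the background level. They were gated in 92 to 285 nuclei per mouse in 7 mice, and in 9 nuclei of RD tumour 1, which were left out. Mup20 was higher in T/NK-gated than in hepatocyte-gated nuclei in 7 of 7 mice, at 712 to 4475 CPM against 533 to 3988 CPM. The mean log2 difference was 0.29 ± 0.21 (SD, n = 7), with a p of 0.0156 in a two-sided exact permutation test of signs, the smallest that 7 mice allow. It turned to -0.12 (exact permutation p = 0.469) with stricter gates for both classes. These asked for 1 T/NK marker more and allowed hepatocyte-gated nuclei no marker of another class. The hepatocyte gate of WD tumour 2 then held 177 nuclei, against 1713 before. Nuclei with at least 1000 UMIs were thinned to 1000 UMIs, and shallower nuclei were left out of every share after thinning. Some of these gates had a median depth below 1000 UMIs. Of the nuclei that remained, 50.6% to 98.7% of T/NK-gated nuclei had a Mup20 UMI, against 37.1% to 91.5% of hepatocyte-gated nuclei in the same mice. In endothelial-gated and macrophage-gated nuclei Mup20 was lower than in hepatocyte-gated nuclei (log2 fold change -0.54 and -0.45, adjusted p = 0.00947 and 0.00214, edgeR). In stellate-gated nuclei Mup20 was not called (-0.17, adjusted p = 0.3, edgeR). These values come from fits of all 8 mice with size factors, unlike the differences in CPM over 7 mice given for T/NK-gated nuclei. The part of free RNA in these levels was not tested. Ghr, in contrast, was lower in T/NK-gated nuclei in 7 of 7 mice (mean log2 difference -1.32 ± 0.54 SD, exact permutation p = 0.0156), with a UMI after thinning in 13.0% to 37.0% of T/NK-gated and 53.8% to 88.9% of hepatocyte-gated nuclei. Igf1 had a UMI after thinning in 18.8% to 39.3% of T/NK-gated and 38.2% to 61.1% of hepatocyte-gated nuclei. Before thinning, over all gated nuclei, the shares were 66.7% to 100% and 67.1% to 99.9% for Mup20, and 16.1% to 44.6% and 36.8% to 78.8% for Ghr. Median depths were 887 to 1661 UMIs in T/NK-gated and 970.5 to 4433 UMIs in hepatocyte-gated nuclei of these mice.

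Cish was higher in T/NK-gated nuclei than in hepatocyte-gated nuclei of the same mouse. In lymphocytes it restrains signalling of cytokine receptors. Its level in T/NK-gated nuclei was 67.4, 55.9 and 58.6 CPM in RD no tumour, 37.8 in RD tumour 2, and 18.4, 30.0 and 54.6 in WD tumour. In hepatocyte-gated nuclei of the same mice it was 26.8, 2.07 and 4.34, 7.02, and 7.16, 13.7 and 8.90 CPM. All 7 mice were higher in T/NK-gated nuclei, by a mean log2 difference of 2.48 ± 1.37 (SD, n = 7; two-sided exact permutation p = 0.0156), from 4 to 32 UMIs per mouse. Mup20, Ghr and Cish were chosen for this test from the 10 members after their values were seen. With all 7 mice in 1 direction for each, the exact permutation p could only be 0.0156. It remained 0.0156 when adjusted over these 3 members alone, and so describes the direction without adding evidence.

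**Figure D3:**
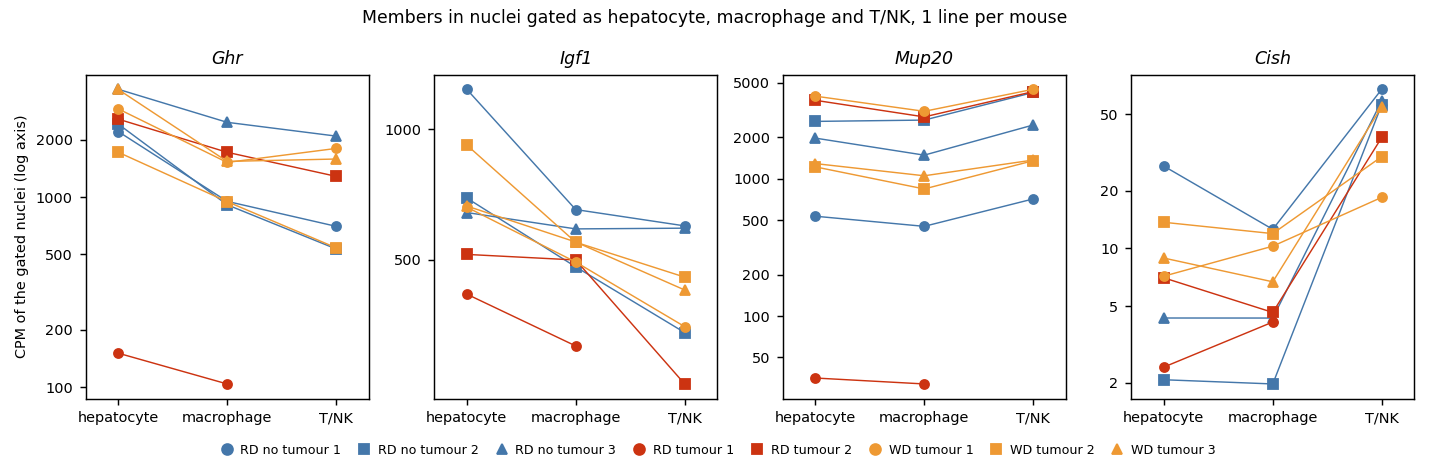
CPM of Ghr, Igf1, Mup20 and Cish in nuclei gated as hepatocyte, macrophage and T/NK (log axis, range set per gene), 1 line per mouse; RD tumour 1 has no T/NK value. Cish is highest in T/NK-gated nuclei in 7 of 7 mice, Ghr is lower there than in hepatocyte-gated nuclei, and Mup20 differs little between gates within a mouse but widely between mice.

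The wider pathway was described with 5 gene lists in whole libraries, in which 0 genes were called in any contrast. Of 20 male-biased genes that depend on growth hormone pulses, 19 had a lower fitted level in the WD tumour group than in mice without tumour. In the RD tumour group 19 did. The median log2 fold changes were -1.41 and -1.31 (all genes -0.01 and 0.00), and 49% and 50.2% of all genes had a higher fitted level. The list holds several Mup genes, between which the split of reads is uncertain, so its genes are not separate observations. RD no tumour 1 did not share the level of its group. The list's median relative to the RD no tumour mean was -1.25 in that mouse, 0.70 and 0.39 in RD no tumour 2 and 3, -3.08 and -0.38 in RD tumour, and -0.83, -1.91 and -1.23 in WD tumour. Without RD tumour 1 the median for RD tumour against RD no tumour was -0.55, and without RD tumour 2 it was -5.24. Slco1a1, an organic anion transporter and 1 of the 3 list genes with the smallest p, was higher in all 3 RD no tumour mice than in the 5 tumour-bearing mice, whose 2 groups overlapped. It stood at 268, 313 and 407 CPM in RD no tumour, at 116 and 99.1 in RD tumour, and at 129, 154 and 98.8 in WD tumour. Its log2 fold change was -1.69 ± 0.35 (SE) for RD tumour against RD no tumour (unadjusted p = 0.00139, adjusted p = 0.612, edgeR). Relative to RD no tumour, 5.85% of all genes had RD tumour values below without overlap, and 3.8% had WD tumour values below. Mup1 was at 0.343 CPM in RD no tumour 1, at 55.9 and 53.5 in RD no tumour 2 and 3, and at 0.735 or less in all 5 tumour-bearing mice. Mup7 was at 1.48 CPM in RD no tumour 1, at 192 and 232 in RD no tumour 2 and 3, and at 2.31 or less in the tumour-bearing mice.

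Of 17 female-biased genes, which growth hormone pulses hold down in males, 15 had a higher fitted level in the WD tumour group than in mice without tumour. Of all genes, 49% did. The list's median log2 fold change was 1.67, and 0.76 without WD tumour 3. Set against the same reference as above, the female-biased genes had a median of 0.08, -0.30 and 0.24 for RD no tumour 1 to 3, of 1.37 and 0.01 for RD tumour 1 and 2, and of 0.84, 0.23 and 1.67 for WD tumour 1 to 3. WD tumour 2 lay within the RD no tumour range. WD tumour 1 and 3, which lay above it, had 7.91% and 7.51% mitochondrial UMIs against 2.77% in WD tumour 2, and the part of RNA quality in this list was not tested. Between RD tumour and RD no tumour 11 of 17 were higher (median 0.44, and -0.19 without RD tumour 1), where 50.2% of all genes were. Cyp2b13, a steroid-metabolising cytochrome of female liver, was at 0.206, 0.0441 and 0.279 CPM in RD no tumour, at 0.116 and 0.367 in RD tumour, and at 3.40, 1.11 and 3.86 in WD tumour. All 3 WD tumour mice were above the other 5 (log2 fold change against RD no tumour 3.87 ± 0.82 SE, unadjusted p = 0.00164, adjusted p = 1.0, edgeR), at 16 UMIs in RD no tumour and 181 in WD tumour. The WD tumour values of 6.85% of all genes lay above those of RD no tumour without overlap. For RD tumour the share was 10.4%. Hao2 gave 3 UMIs in RD no tumour, 1 in RD tumour and 32 in WD tumour. Prom1, also a marker of bile duct and progenitor cells, was at 4.05, 1.32 and 1.09 CPM in RD no tumour, at 21.8 and 12.0 in RD tumour, and at 2.67, 2.27 and 2.56 in WD tumour. Both RD tumour mice were above all others (log2 fold change 2.96 ± 0.59 SE, unadjusted p = 0.00108, adjusted p = 0.612, edgeR). The RD tumour values of 10.8% of all genes lay above those of RD no tumour without overlap. For WD tumour the share was 11%.

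**Figure D4:**
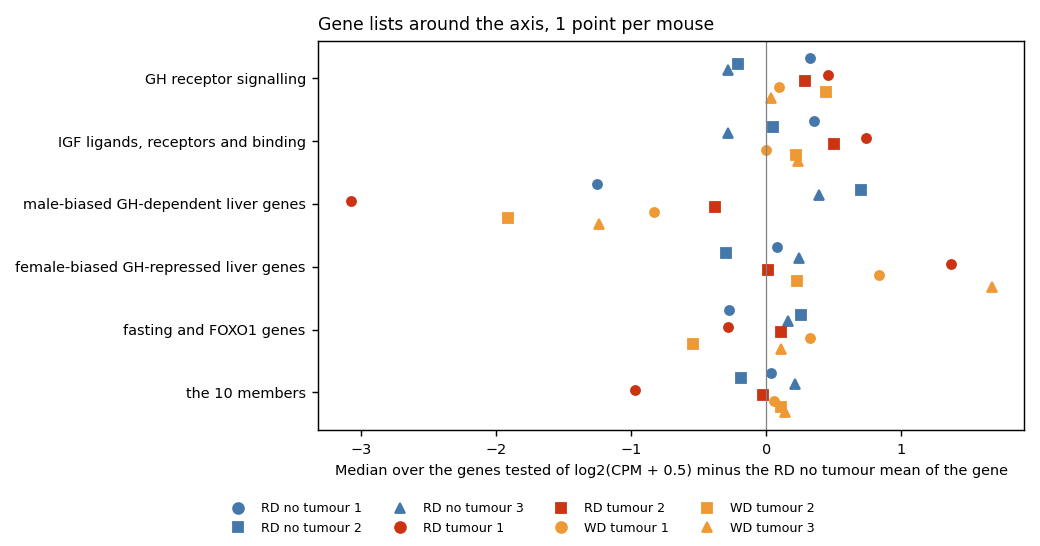
For each of the 5 gene lists and the 10 members, the median over the genes tested of log2(CPM + 0.5) minus the RD no tumour mean of the gene, 1 point per mouse coloured by group. The male-biased list runs from -3.08 (RD tumour 1) to 0.70 (replicate 2 of RD no tumour), with RD no tumour 1 at -1.25 among the tumour-bearing mice.

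Irs2, among the 15 IGF genes tested beyond the members, encodes the substrate that passes on insulin and IGF-1 signals in hepatocytes. It stood at 68.7, 44.5 and 27.0 CPM in RD no tumour, at 209 and 122 in RD tumour, and at 32.6, 58.9 and 36.6 in WD tumour, and both RD tumour mice were above the other 6. The log2 fold change was 1.80 ± 0.43 (SE) for RD tumour against RD no tumour (unadjusted p = 0.00318, adjusted p = 0.612, edgeR). In that comparison 10.8% of all genes were higher in RD tumour without overlap, and 11% were lower in WD tumour than in RD tumour. Igf2bp2 was higher in all 3 WD tumour mice (9.08, 14.8 and 13.5 CPM) than in RD no tumour (4.39, 2.91 and 4.28) and RD tumour (4.63 and 7.16). Against RD no tumour its log2 fold change was 1.63 ± 0.33 (SE, unadjusted p = 0.00125, adjusted p = 1.0, edgeR). WD tumour values lay above those of RD no tumour in 6.85% of all genes without overlap. They lay above those of RD tumour in 10.4%. Igfbp6, a binding protein with a preference for IGF-2, was at 0.285 to 0.489 CPM in WD tumour, at 1.80 and 2.42 in RD tumour, and at 2.20, 2.34 and 0.0621 in RD no tumour.

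In the list of growth hormone signalling (16 genes tested), Stat5a, the close relative of Stat5b, was at 17.1, 14.0 and 17.4 CPM in RD no tumour, at 24.1 and 27.9 in RD tumour, and at 19.8, 23.6 and 21.02 in WD tumour. The groups did not overlap, with RD no tumour lowest and RD tumour highest (log2 fold change 0.62 ± 0.23 SE for RD tumour against RD no tumour, unadjusted p = 0.0297, adjusted p = 0.612, edgeR). Grb10, an adaptor that limits insulin and IGF-1 receptors, was at 11.9 to 19.5 CPM in RD no tumour mice, at 48.3 and 20.0 in RD tumour mice, and at 24.9 to 39.2 in WD tumour. Lepr, the leptin receptor, was at 189 CPM in RD tumour 1 and at 20.1 to 60.1 in the other mice. Of the 12 fasting and FOXO1 genes, Pdk4 and Foxo1 were among the 3 with the smallest p. Pdk4, which spares glucose in fasting, ranged from 7.02 to 59.4 CPM and was highest in RD tumour 2. Foxo1 ranged from 129 CPM in RD no tumour 1 to 333 in WD tumour 1.

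For 4 members, genes among the 3 with the highest Pearson correlation of log2(CPM + 1) over the 8 libraries are given as a description. Ctns followed Igfbp1 (r = 0.9996, and 0.9992 without RD tumour 1), and Lysmd2 and Hist1h2bj did so at 0.991. Ctns ran from 14.1 CPM in WD tumour 1 to 26.2 in RD tumour 1, a narrower range than that of Igfbp1. Met and Dmd followed Ghr (r = 0.997 and 0.996, and 0.967 and 0.958 without RD tumour 1). Aldh9a1 and Ubr3 followed Igfbp2 (0.973 and 0.970), and Tstd2, Slc52a2 and Trim12c followed Igf1 (0.970, 0.968 and 0.964). In these libraries RD tumour 1 stood apart and RD no tumour 1 lay near WD tumour 2, and these genes are the highest of 19087, so the values describe a common ordering of the mice.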

How the data were processed

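Single-nucleus libraries of 8 livers were made with 10x Genomics 3′ chemistry, per the labels' protocols. The authors deposited raw UMI counts per gene and barcode, made with Cell Ranger 7.0.0 and build mm10 per the submitters' processing notes; the annotation, intron counting and barcode calling are not given in the sources used here. Barcodes with at least 300 genes were kept and their counts summed per mouse, for whole libraries and for nuclei gated on marker genes.

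Groups were compared with edgeR 4.0.16 (quasi-likelihood test, TMM size factors, filterByExpr) in a fit of all 8 mice, adjusted by Benjamini-Hochberg over all genes tested at 0.05. The 3 contrasts share groups. Zones and classes were compared within mice, with the mouse as a block. DESeq2 1.42.0, other size factors, no filter, Scrublet scores (scanpy 1.11.5), stricter gates, a limit of 5% mitochondrial UMIs and leaving out each mouse were the alternatives. Doublets were kept in the values reported. The fit of whole libraries was tested on simulated data for changes in WD tumour against RD no tumour only. Contrasts with RD tumour and the fits within mice were not simulated.

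All members are named, and up to 3 genes per list with the smallest unadjusted p against RD no tumour. Some genes that this rule or the correlations would name are not reported here. The members and lists were chosen with earlier results of these data known. Each library is labelled as a separate sample, and p-values measure the spread between these mice. Deposited totals of 17948627 to 34363108 UMIs limit the precision. Promoters are from RefSeq (GRCm38.p6) and gene positions from GENCODE (GRCm38).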

Additional observations from a re-analysis of the deposited data

How the results depend on the processing

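In whole libraries DESeq2 called 67 genes between RD tumour and RD no tumour, 36 between the WD tumour and RD no tumour groups, and 109 between both tumour groups. In hepatocyte-gated nuclei it called 575, 69 and 95. In all of these contrasts edgeR called 0 genes, and the cause was not tested. Leaving out 1 mouse at a time gave 0 to 4569 genes and 0 to 3 members between RD tumour and RD no tumour, and 0 to 4438 genes and 0 to 3 members between both tumour groups. In hepatocyte-gated nuclei the ranges were 0 to 5537 genes and 0 to 4 members, and 0 to 4340 genes and 0 to 5 members. The upper ends came without RD tumour 2, which leaves RD tumour 1 alone in its group. The same replicate numbers did not pair the mice (correlations of deviations from -0.605 to 0.463), and a fit with the replicate number as a block called 0 genes and 0 members in all 6 contrasts. Of 60 member values between groups, 0 of them called, 34 changed sign under at least 1 alternative. Of 40 values between zones or classes within mice 4 did, none of them among the 28 called. The number of members called was 4 to 5 for zones, 7 to 9 for endothelial-gated, 6 to 8 for stellate-gated and 8 to 10 for macrophage-gated nuclei. Mup20 in zones passed without a filter (adjusted p = 0.00106, edgeR), with a stricter gate (0.000357) and without WD tumour 1 or WD tumour 2 (0.0137 and 0.0247). Mup20 in T/NK-gated against hepatocyte-gated nuclei turned to -0.12 with stricter gates for both classes, an alternative chosen after seeing the data. The cause was not tested. Depth limits small gates: Cish had 4 to 32 UMIs per mouse in T/NK-gated nuclei, and Igfals 0 to 45 in stellate-gated nuclei.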
